A study of Homo sapiens with 63 samples.

Results

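At 18 h, the expression of all genes was compared between HEK293T cells of the ibufenac probe arm (3 libraries) and cells given DMSO, the solvent control (3 libraries), which are 6 of the 63 libraries of the study. The 6 were chosen by their labelled treatment and time, with no use of measured values. HEK293T is an established human embryonic kidney line, and here it was made to express the Halo tag, a protein that binds chloroalkane ligands covalently. Per the series' design text, the tag-bound precursor of each drug (Ht-Pre-AG-ibufenac in the case of ibufenac, Ht-Pre-AG-ibuprofen in that of ibuprofen) was given at 10 µM for 2 h, unbound compound was washed out, and light (365 nm, 5 mW/cm2, 3 min) freed the acyl glucuronide of the drug from the tag. The other groups used were the ibufenac probe and DMSO at 6 h and at 12 h, and the ibuprofen probe, photocaged ibufenac and the ibufenac bolus at 18 h, with 3 libraries each. The labels do not say how the probe and photocaged arms differ, which arms received light, the dose of the bolus, or whether the DMSO cells were lit. They also do not say whether replicates were separate cultures, so the p-values below may measure technical spread. The 6 libraries held 16 to 18.4 M counts each (M, 1e6).

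Ibufenac is an arylacetic acid anti-inflammatory drug that was withdrawn because of liver injury, and ibuprofen is the same molecule with an added methyl group beside the acid. Liver enzymes join such acids to glucuronic acid, and the acyl glucuronides so formed can transfer the drug onto proteins. Cells that sense damaged protein, amino acid shortage or disturbed folding in the endoplasmic reticulum phosphorylate a translation factor, which raises the transcription factor ATF4 and with it genes of amino acid uptake and synthesis. HEK293T cells are not hepatocytes. Of the 10 HEK293T markers listed, 9 had a mean of at least 1 CPM (counts per 1e6 counts of the library), and their sum was 809 to 824 CPM in ibufenac probe cells and 745 to 825 CPM in DMSO cells. The 10 hepatocyte markers summed to 8.13 to 9.58 CPM in ibufenac probe cells and 4.82 to 9.82 CPM in DMSO cells, and 4 of them were at 0 in all 6 libraries.

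Expression differed from DMSO at 18 h by small amounts in many genes. Of 19352 genes tested, 349 were higher and 172 lower in ibufenac probe cells at an adjusted p under 0.05 (edgeR quasi-likelihood test, Benjamini-Hochberg adjustment over all tested genes), which is 2.69% of the genes tested, 1.8% higher and 0.889% lower. The median size of the called changes was 0.42 on the log2 scale, and 41 genes changed more than 2-fold, 30 up and 11 down. The median log2 fold change of all tested genes was -0.01. In the called set, 493 of 521 genes were protein-coding. Over all tested genes, the 3 ibufenac probe libraries lay wholly above or wholly below the 3 DMSO libraries in 17.6%. Among the 521 called genes, 502 lay apart in this way. Lying apart was also a condition for the genes chosen by size below, so it adds no support to them.

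How many genes were called depended on which libraries entered the model. The 63 libraries share 1 estimate of the spread; with the 18 h libraries only, 305 genes were called, 272 of them among the 521, and with only the 6 libraries compared 6 were called, 4 of them among the 521. Leaving out an ibufenac probe library left 289 calls without replicate 1, 247 without replicate 2 and 220 without replicate 3. Of these calls, 268, 241 and 216 were among the 521. Leaving out a DMSO library left 403 calls without replicate 1, 529 without replicate 2 and 336 without replicate 3, where 20033 genes were tested and 1.68% passed, 256 higher (1.28%) and 80 lower (0.399%). Without DMSO replicates 1, 2 and 3, only 298, 378 and 219 of the calls were among the 521. The DMSO library of replicate 3 was the lowest of the DMSO libraries for 173 of the 349 higher genes and the highest for 122 of the 172 lower genes. Among 3 libraries, 1 is always the lowest and 1 the highest, and the share over all tested genes is not given here. Fold changes also ran with base composition. Over 10157 genes with a mean log2 CPM over 3, the log2 fold change had a correlation of -0.40 with GC content, where genes share libraries and are not independent. With trends by gene length and GC content removed from each library, 504 of 19318 genes passed (2.61%), 228 higher (1.18%) and 276 lower (1.43%), against 349 and 172 without that step. Only 327 of these 504 were among the 521, so the called set changed more than its size. The part of GC content in the calls was not tested further. A set of 91 genes, 68 higher and 23 lower, passed in each of the 6 fits that left out 1 of these libraries and in the fit with the trends removed, and the genes described first below belong to it.

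**Figure D1:**
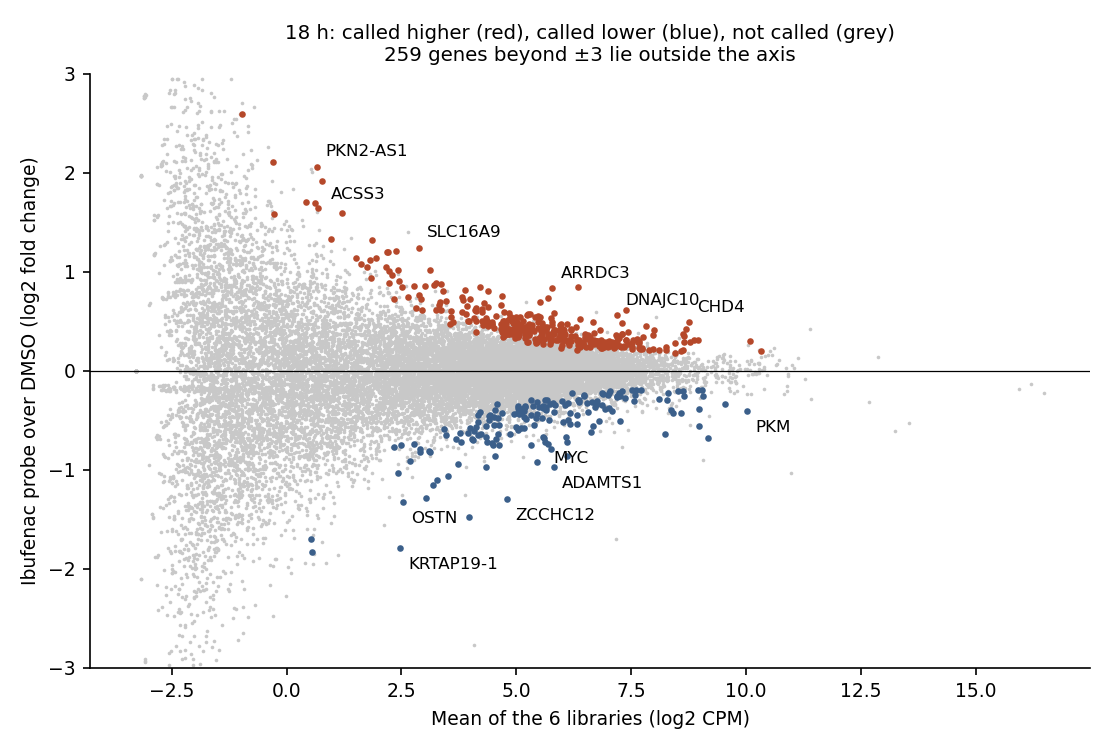
Each point is 1 of 19352 tested genes, with its mean over the 6 libraries in log2 CPM on the horizontal axis and its log2 fold change, ibufenac probe over DMSO at 18 h, on the vertical axis. The 349 higher genes are red and the 172 lower genes blue; most called changes of well expressed genes are smaller than 1 on the log2 scale, and 259 genes, 6 of them called, lie beyond the axis limits of 3.

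KRTAP19-1, OSTN and ZCCHC12 were among the genes that fell most. KRTAP19-1, a keratin-associated protein gene (chr21:30479699-30480344 on GRCh38, GENCODE 29), had 2.88, 3.02 and 2.91 CPM in ibufenac probe cells, against 7.39, 11.1 and 12.0 CPM in DMSO cells. Its log2 fold change was -1.79 ± 0.27 (SE, n = 3 each, edgeR adjusted p = 4.06e-05). The ibufenac probe libraries were nearly equal. All lay below the DMSO libraries, as was required of genes chosen by size. KRTAP19-1 belongs to a multigene family, and reads shared with its relatives may have been split by the authors' count estimates.

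OSTN, which encodes the secreted peptide osteocrin, had 3.89, 4.20 and 2.74 CPM in ibufenac probe cells and 11, 7.98 and 8.36 CPM in DMSO cells, a log2 fold change of -1.33 ± 0.22 (SE, edgeR adjusted p = 0.000195). ZCCHC12, a zinc finger protein that takes part in bone morphogenetic protein (BMP) signalling, had 16.1, 21.4 and 16.4 CPM in ibufenac probe cells and 32.9, 43.8 and 56.2 CPM in DMSO cells, with a log2 fold change of -1.3 ± 0.14 (edgeR adjusted p = 4.32e-08). Both genes had all 3 ibufenac probe libraries below all DMSO libraries. The smallest adjusted p of the comparison, 7.34e-09, belonged to ADAMTS1, a secreted metalloprotease of the extracellular matrix (chr21:26835747-26845409). It had 42.6, 36.4 and 42.5 CPM in ibufenac probe cells, against 69.9, 70.9 and 97.1 CPM in DMSO cells, and a log2 fold change of -0.97 ± 0.10. Without DMSO replicate 3, the highest library, the value was -0.80.

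Among transcription factors, KLF15, a zinc finger factor of fuel metabolism, had 7.34, 5.44 and 5.65 CPM in ibufenac probe cells and 10.8, 13.1 and 16.9 CPM in DMSO cells, a log2 fold change of -1.15 ± 0.20 (edgeR adjusted p = 0.000446). MYC, the growth-promoting transcription factor, had 45.4, 35.4 and 35.8 CPM in ibufenac probe cells and 54.0, 55.1 and 82.7 CPM in DMSO cells, with a log2 fold change of -0.72 ± 0.11 (edgeR adjusted p = 4.06e-05). The ibufenac probe and DMSO libraries did not overlap for either gene. For MYC, the value without DMSO replicate 3 was -0.49, and for KLF15 it was -0.96. DEPP1, an autophagy-linked gene induced by FOXO factors, fell by 1.1, MYOM2, a sarcomere protein, by 1.06, LRATD2 by 0.92, CA2, a carbonic anhydrase, by 0.86 and AMOT, a regulator of Hippo signalling, by 0.56 on the log2 scale. The highest adjusted p of these 5 was 0.000901, for DEPP1.

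Glutamine and pyruvate metabolism each had a member in this group. GLUL, glutamine synthetase, had 436, 442 and 437 CPM in ibufenac probe cells, against 519, 547 and 663 CPM in DMSO cells, and its log2 fold change was -0.39 ± 0.06 (edgeR adjusted p = 1.64e-05). PKM, pyruvate kinase of glycolysis, had 881, 894 and 926 CPM in ibufenac probe cells, against 1120, 1140 and 1330 CPM in DMSO cells, and a log2 fold change of -0.41 ± 0.08 (edgeR adjusted p = 0.000918). For both, each ibufenac probe library was below each DMSO library. GLUL, and PGK1, LDHA, ALDOA and HSPE1 below, have pseudogene copies that may share reads. In such bulk samples, fewer cells that express a gene and less RNA per cell cannot be told apart.

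Of the 12 lower genes chosen by size, 4 lost their call when single libraries were left out. FRMD1, at -1.70, passed only without DMSO replicate 2 of the 6 such fits, and its value ranged between -1.94 and -1.3. ID3, an inhibitor of basic helix-loop-helix factors, was at -1.29 and lost its call without ibufenac probe replicate 3 or DMSO replicate 3, where it was at -1.04. CXCR4, a chemokine receptor, had 14.9, 15.6 and 14.5 CPM in ibufenac probe cells and 20.6, 21.6 and 46.0 CPM in DMSO cells. Its log2 fold change was -0.97 (edgeR adjusted p = 0.0304), and -0.49 without DMSO replicate 3; the call also went without any 1 ibufenac probe library. CITED1, a transcription co-regulator, was at -0.94, and at -0.62 without DMSO replicate 3, and lost its call there and without ibufenac probe replicate 1 or 3.

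The genes that rose most were expressed at low levels. PKN2-AS1, a long noncoding RNA gene (chr1:87620803-88685204), had 3.05, 3.73 and 3.17 CPM in ibufenac probe cells and 0.985, 1.19 and 0.193 CPM in DMSO cells. Its log2 fold change was 2.06 ± 0.38 (SE, n = 3 each, edgeR adjusted p = 0.000636). The library kit keeps strand, but the strand setting of the counts is not given in the sources used here, so its reads may include some of genes on the other strand. ACSS3, a mitochondrial acyl-CoA synthetase that acts on propionate, had 2.48, 3.14 and 3.93 CPM in ibufenac probe cells, against 0.554, 1.05 and 0.900 CPM in DMSO cells, a log2 fold change of 1.92 ± 0.40 (edgeR adjusted p = 0.00332). The ibufenac probe libraries of both genes all lay above the DMSO libraries.

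SLC16A9, ACVR1, ZNF19 and ARRDC3 were also higher. SLC16A9, a transporter of carnitine and creatine, had 12.6, 9.41 and 12.0 CPM in ibufenac probe cells, against 3.45, 6.46 and 4.50 CPM in DMSO cells, with a log2 fold change of 1.24 ± 0.21 (edgeR adjusted p = 0.000313). ACVR1, a type I receptor of BMP ligands, had 7.73, 6.27 and 7.10 CPM in ibufenac probe cells, against 4.06, 3.49 and 1.61 CPM in DMSO cells, and a log2 fold change of 1.2 ± 0.22 (edgeR adjusted p = 0.000477). The DMSO library of replicate 3 was the lowest for ACVR1, which was at 0.90 without it. The zinc finger gene ZNF19 rose by 1.32 on the log2 scale (edgeR adjusted p = 0.00151). ARRDC3, an arrestin of the same family as the glucose sensor TXNIP, had 73.6, 73.4 and 74.8 CPM in ibufenac probe cells, against 47.3, 47.0 and 30.4 CPM in DMSO cells, and rose by 0.83 ± 0.12 (edgeR adjusted p = 1.09e-05).

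**Figure D2:**
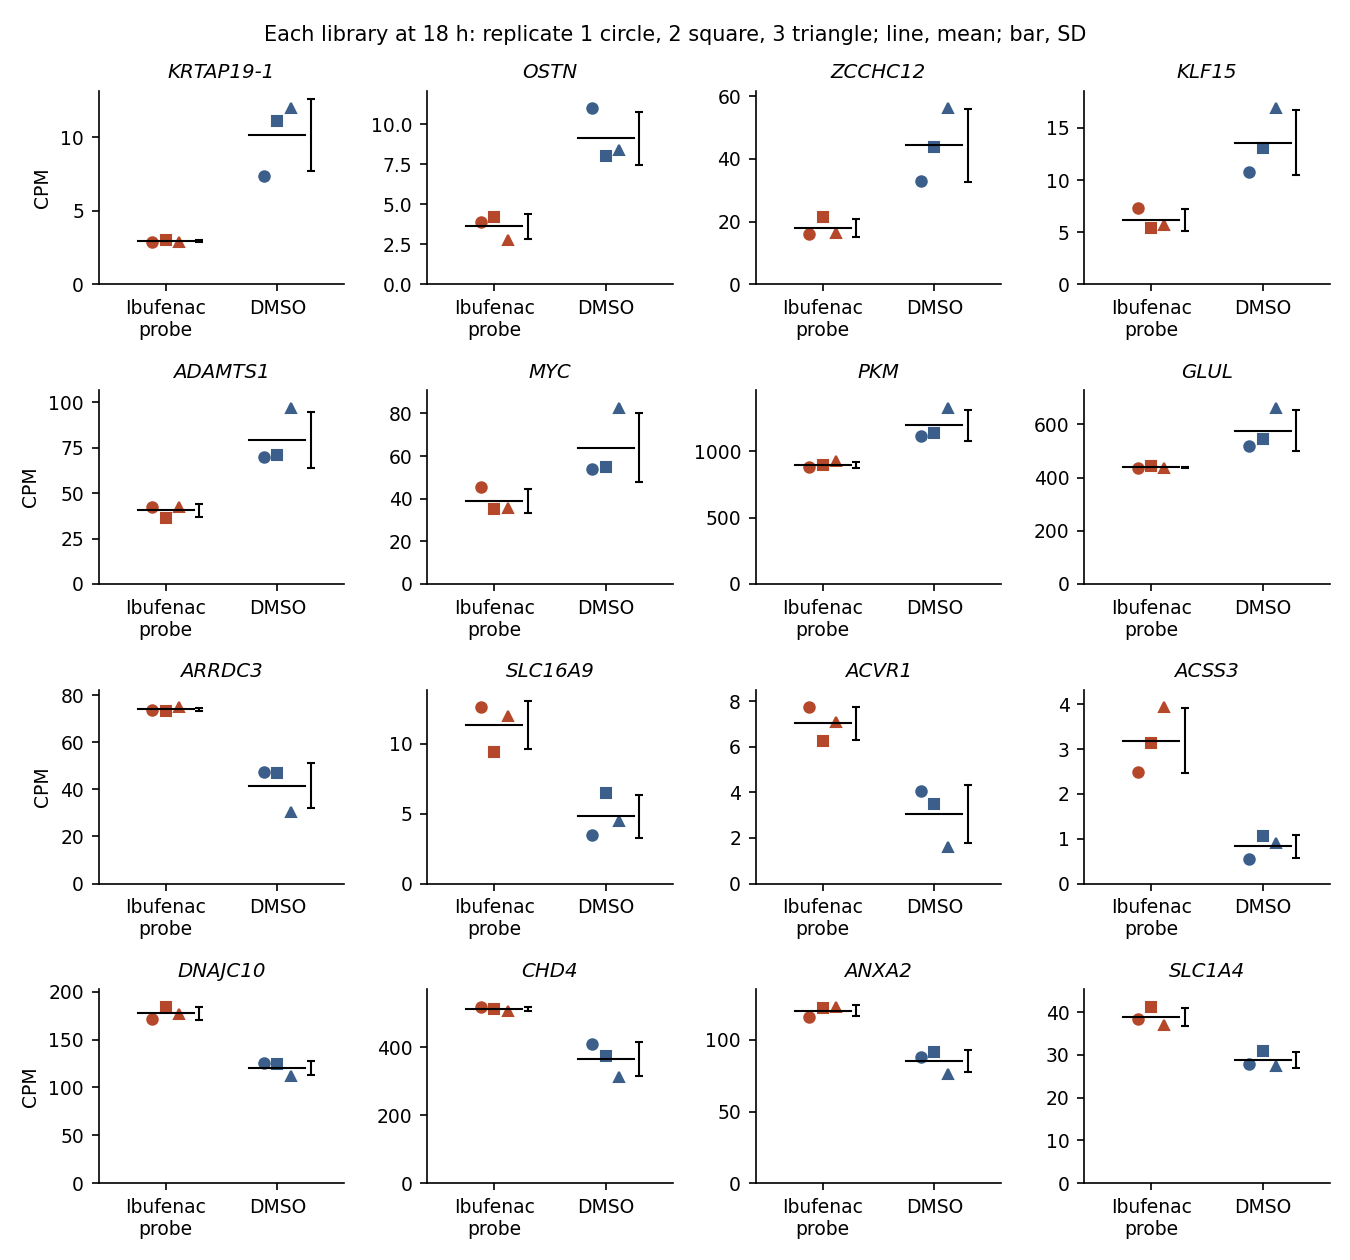
CPM of each library at 18 h for 16 genes that passed in each fit that left out 1 of the 6 libraries, ibufenac probe left of DMSO; symbols mark replicates, lines the mean and bars the SD (n = 3). The first 8 genes lie lower and the last 8 higher in ibufenac probe cells with no overlap, and DMSO replicate 3 is the DMSO library farthest from the ibufenac probe in 13 of the 16 panels.

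Several better expressed genes rose by smaller amounts. DNAJC10, a disulfide reductase of the endoplasmic reticulum, had 171, 184 and 177 CPM in ibufenac probe cells, against 125, 124 and 112 CPM in DMSO cells, and rose by 0.56 ± 0.07 (edgeR adjusted p = 7.61e-07). CHD4, the helicase of the NuRD chromatin remodelling complex, had 518, 511 and 505 CPM in ibufenac probe cells, against 410, 374 and 311 CPM in DMSO cells, and rose by 0.49 ± 0.06 (edgeR adjusted p = 7.61e-07). In both, the libraries of the 2 groups lay apart. TRAM1, a component of the protein translocation channel, rose by 0.48, ANXA2, a calcium-dependent membrane-binding protein, by 0.49, and the chromatin remodeller CHD1L by 0.44. ATP2B4, a plasma membrane calcium pump, rose by 0.69, the Arp2/3 inhibitor ARPIN by 0.73, MAGED2 by 0.61, the membrane scaffold ANK2 by 0.58 and the lipid flippase ATP9A by 0.52. The largest adjusted p of these 8 genes was 4.74e-05, for ANXA2, which has pseudogene copies that may share reads. These 10 genes, with CA2, MYC, AMOT and GLUL above, were chosen after their values were seen, since they have among the 20 smallest adjusted p.

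Of the 12 higher genes chosen by size, 7 lost their call in at least 1 fit that left out a library. CTSO, a cysteine protease, TNFRSF9, a costimulatory receptor, and the phosphatase MDP1 rose by 1.69, 1.59 and 1.21 on the log2 scale, and each lost its call without DMSO replicate 3, where the values were 1.3, 1.18 and 1.1. MDP1 overlaps a read-through transcript with its neighbour NEDD8, so its reads are uncertain. NIBAN1, a stress-induced gene, was at 1.2 and lost its call without ibufenac probe replicate 2 or DMSO replicate 3. CHMP4C, at 1.33, lost it without ibufenac probe replicate 1 or 2 or DMSO replicate 1. MTMR11, at 1.70, lost it without ibufenac probe replicate 1 or 3 or DMSO replicate 2 or 3. SHLD2P1, a pseudogene at 1.64, lost it without ibufenac probe replicate 1 or 2 or DMSO replicate 1 or 3. Over these fits the 4 ranged between 0.97 and 1.33, 1.05 and 1.55, 1.26 and 2.21 and 1.28 and 2.23.

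Genes of the ATF4 programme were close to DMSO at 18 h. Of the 20 ATF4 targets listed, 0 passed as higher and 2 as lower, the transcription factor ATF3 and the secreted glycoprotein STC2, and the list's median log2 fold change was -0.06, beside -0.01 over all tested genes. Without DMSO replicate 1 or 3, 1 member passed as higher, and without ibufenac probe replicate 1 or 3, 0 passed as lower. ATF4 itself had 530, 514 and 522 CPM in ibufenac probe cells and 533, 516 and 510 CPM in DMSO cells, a log2 fold change of 0.01 ± 0.06 (edgeR adjusted p = 0.979), whose sign turned in 4 of the alternative fits. The pseudokinase TRIB3, a target and inhibitor of ATF4, had 40.4, 35.0 and 35.5 CPM in ibufenac probe cells and 32.3, 31.5 and 28.5 CPM in DMSO cells. Its value of 0.26 ± 0.10 did not pass (edgeR adjusted p = 0.135), and did with length and GC trends removed, at 0.41 (adjusted p = 0.0102). ASNS, asparagine synthetase, was at 0.22 ± 0.07 (edgeR adjusted p = 0.0867). For both genes the 3 ibufenac probe libraries lay above the 3 DMSO libraries.

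ATF3 had 110, 112 and 120 CPM in ibufenac probe cells and 162, 169 and 115 CPM in DMSO cells, so the groups overlapped, and it fell by 0.38 (edgeR adjusted p = 0.0429). Its call held only without DMSO replicate 3, where the value was -0.54. STC2 had 118, 124 and 115 CPM in ibufenac probe cells and 137, 133 and 205 CPM in DMSO cells. It fell by 0.41 (edgeR adjusted p = 0.0200), and was at -0.18 and not called without DMSO replicate 3; it also lost its call without ibufenac probe replicate 1 or 3. The glutathione-degrading enzyme CHAC1 was at -0.78 ± 0.24, the death-linked factor DDIT3 at -0.29 ± 0.12 and the cytokine GDF15 at -0.51 ± 0.26, with adjusted p of 0.0657, 0.228 and 0.363 (edgeR). CHAC1 passed only without DMSO replicate 3, its lowest DMSO library at 6.30 CPM, where it was at -1.05.

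Amino acid genes were mostly not called. Of 14 amino acid transporters, 2 were higher and 0 lower, where 1.8% of all tested genes were higher and 0.889% lower. SLC1A4, a carrier of serine and alanine, had 38.5, 41.2 and 37.1 CPM in ibufenac probe cells, against 27.9, 30.9 and 27.5 CPM in DMSO cells, and rose by 0.44 ± 0.09 (edgeR adjusted p = 0.00177), which held in each fit that left out a library. SLC7A3, a carrier of basic amino acids, rose by 1.01 (edgeR adjusted p = 0.0333), and held only without ibufenac probe replicate 3 or DMSO replicate 3, where it was at 1.3. Of 16 genes of serine, one-carbon and amino acid synthesis, the mitochondrial folate enzyme ALDH1L2 was higher, by 0.56, and CTH, which makes cysteine, was lower, by 0.36; each passed in 2 of the 6 fits that left out a library. Among the cytosolic tRNA synthetases, CARS1 was lower, by 0.30, and passed in 1 of those fits, without DMSO replicate 3, where it was at -0.44.

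Of 25 genes that answer unfolded protein in the endoplasmic reticulum, 4 were higher and 0 lower, with a median log2 fold change of 0.13. Over all tested genes, 1.8% were higher and 0.889% lower. The 4 were ATF6, a membrane-bound stress sensor, at 0.36, and the chaperones HSP90B1, at 0.29, and CANX, at 0.20. The last was XBP1, the factor activated by the sensor ERN1, at 0.23. Of the whole list, 0 members passed without DMSO replicate 3, 1 without each ibufenac probe library, 2 without DMSO replicate 1 and 4 without DMSO replicate 2. ATF6 had 105, 111 and 110 CPM in ibufenac probe cells and 86.2, 98.3 and 68.8 CPM in DMSO cells, and was at 0.23 without DMSO replicate 3. The main chaperone of the compartment, HSPA5, was at 0.08 ± 0.14 (edgeR adjusted p = 0.859), and the co-chaperone DNAJB9 at 0.18 ± 0.14.

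Lower calls among hypoxia targets at 18 h went with DMSO replicate 3. Of 24 hypoxia targets, 5 were lower (0.889% of all tested genes were) and 0 higher, with a median of -0.34. The 5 were the glucose carrier SLC2A1, ANKZF1, NDRG1, the collagen hydroxylase P4HA1 and the mitophagy receptor BNIP3. Without DMSO replicate 3, 0 members passed and the median was -0.01. BNIP3 had 51.3, 58.3 and 60.2 CPM in ibufenac probe cells, against 57.1, 60.7 and 153 CPM in DMSO cells, and its log2 fold change was -0.67, and -0.06 without DMSO replicate 3. LDHA, lactate dehydrogenase, had 464, 525 and 559 CPM in ibufenac probe cells and 556, 532 and 1040 CPM in DMSO cells, at -0.46 (edgeR adjusted p = 0.0521) and -0.08 without that library. In both genes DMSO replicate 3 was the highest library by far. The mean log2 CPM of the list was 4.50, 4.61 and 4.61 in ibufenac probe cells and 4.52, 4.54 and 5.43 in DMSO cells. The numbers of called hypoxia targets without ibufenac probe replicates 1, 2 and 3 were 1, 0 and 1, and without DMSO replicates 1 and 2 they were 6 and 7. Against the DMSO libraries of the earlier times, 12 of the 24 were lower at 6 h and 12 at 12 h. The median was -0.51 at both times. Over all tested genes, 8.11% were lower at 6 h and 2.67% at 12 h.

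Of 17 glycolysis genes, 6 were lower (0.889% of all tested genes were) and 0 higher, with a median of -0.30 and -0.16 without DMSO replicate 3. PKM, described above, passed in each fit that left out a library. ALDOA, aldolase, had 497, 439 and 435 CPM in ibufenac probe cells, against 660, 658 and 878 CPM in DMSO cells, and fell by 0.68 (edgeR adjusted p = 0.0213). It did not pass without DMSO replicate 3, where it was at -0.53, or without ibufenac probe replicate 2 or 3. GPI fell by 0.30 and PGK1 by 0.43, and they were at -0.22 and -0.16, not called, without DMSO replicate 3. PFKP and TPI1 fell by 0.55 and 0.34 (edgeR adjusted p = 0.0443 and 0.0365). Called members numbered 3, 1 and 1 without ibufenac probe replicates 1, 2 and 3, and 6, 8 and 1 without DMSO replicates 1, 2 and 3. Mean log2 CPM of the list was 7.57, 7.64 and 7.64 in ibufenac probe cells and 7.82, 7.75 and 8.23 in DMSO cells. The DMSO means of replicates 1 and 2 also lay above the ibufenac probe means. Separation of so few libraries is weak, and its source was not tested. At 6 h 6 of the 17 were lower and at 12 h 9 were, with medians of -0.13 and -0.32.

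**Figure D3:**
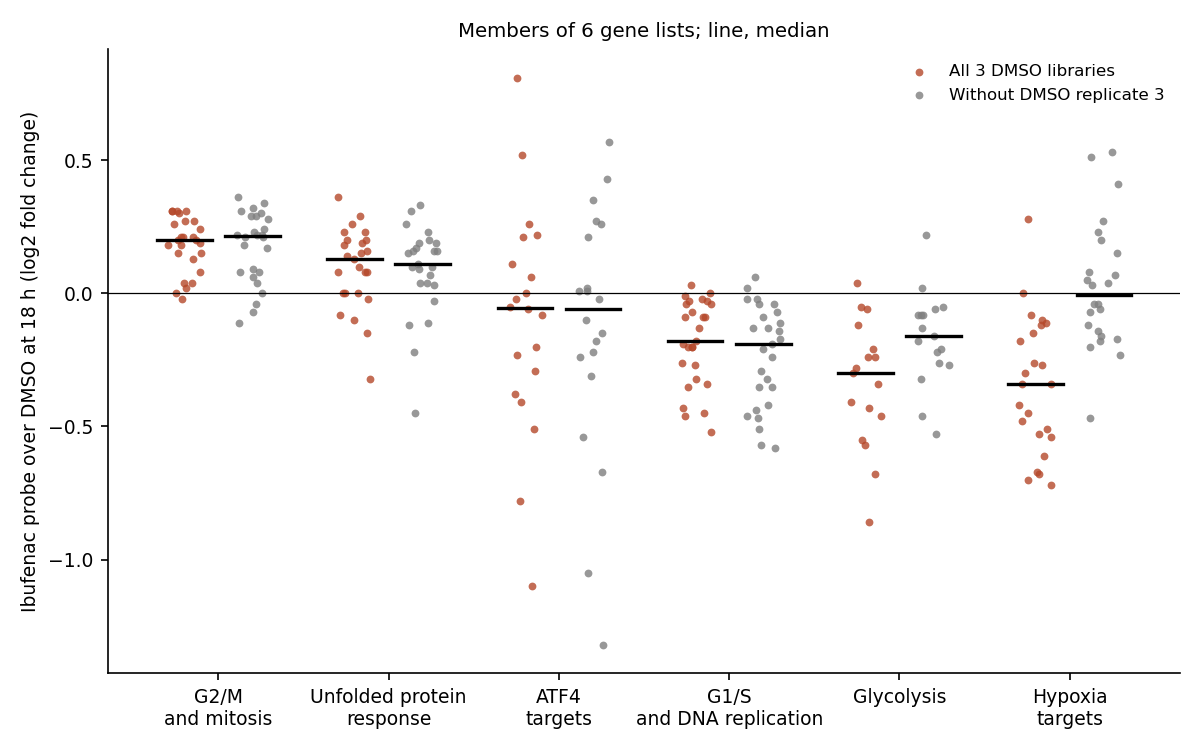
Log2 fold change at 18 h, ibufenac probe over DMSO, of each tested member of 6 gene lists, with all 3 DMSO libraries (red) and without DMSO replicate 3 (grey); lines are medians. The median of the hypoxia list is -0.34 with that library and -0.01 without it, while those of the G2/M list, 0.20 and 0.21, and of the G1/S list, -0.18 and -0.19, barely differ.

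Among cell cycle genes, the called members of a DNA replication list were lower and those of a mitosis list higher, few of each. Of 27 genes of the G1 to S transition and DNA replication, 5 were lower and 0 higher, with a median of -0.18. Over all tested genes, 0.889% were lower. MCM6, a subunit of the replicative helicase, had 93.5, 95.1 and 99.9 CPM in ibufenac probe cells, against 121, 124 and 120 CPM in DMSO cells, and fell by 0.34 ± 0.07 (edgeR adjusted p = 0.00399). E2F1, a transcription factor of S phase entry, had 58.7, 52.5 and 51.8 CPM in ibufenac probe cells, against 87.0, 74.9 and 71.1 CPM in DMSO cells, and fell by 0.52 ± 0.12 (edgeR adjusted p = 0.0106). The libraries of the 2 groups did not overlap for either gene. The other helicase subunits MCM2, MCM4 and MCM7 fell by 0.43, 0.20 and 0.26. MCM6 passed in each of the 6 fits that left out a library; E2F1 did not without ibufenac probe replicate 2 or 3 or DMSO replicate 1, MCM4 did not without ibufenac probe replicate 2 or DMSO replicate 3, and MCM2 passed in 0 of them, at an adjusted p of 0.0387 with all libraries. The list had 3, 1 and 2 calls without ibufenac probe replicates 1, 2 and 3, and 2, 3 and 4 without DMSO replicates 1, 2 and 3.

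Of 26 genes of G2 phase and mitosis, 6 were higher (1.8% of all tested genes were) and 0 lower. In this list 24 of 26 values were positive, and the median was 0.20. TOP2A, which untangles chromosomes, had 532, 585 and 541 CPM in ibufenac probe cells, against 428, 456 and 455 CPM in DMSO cells, and rose by 0.31 ± 0.07 (edgeR adjusted p = 0.00843). CCNB1, the mitotic cyclin, had 157, 165 and 164 CPM in ibufenac probe cells, against 131, 146 and 126 CPM in DMSO cells, and rose by 0.27 ± 0.07 (edgeR adjusted p = 0.0159). Both had all ibufenac probe libraries above all DMSO libraries. The spindle proteins NUSAP1 and KIF11, the kinetochore protein CENPF and the cyclin CCNA2 rose by 0.31, 0.30, 0.31 and 0.31. The list had 4, 1 and 1 calls without ibufenac probe replicates 1, 2 and 3, and 0, 4 and 2 without DMSO replicates 1, 2 and 3. With length and GC trends removed, 1 member passed and the median was 0.13; TOP2A then had an adjusted p of 0.0771 and CCNB1 of 0.304.

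Promoter windows of a pair of called genes from each list are printed here because the called members of the G1/S list were lower and those of the G2/M list higher; CCNB1 and TOP2A are among the calls lost with trends removed. They run from 250 bases before to 50 after the gene's start in RefSeq's GRCh38.p14 and are written 5′ to 3′ on the gene's strand. In the first pair, capitals mark matches to the E2F core, searched on both strands as TTGGCGC, as the form TTCCCGC, as the form TTCGCGC, or else as the form TTGCCGC, where matches to different forms on the 2 strands can overlap in 1 run. In the last pair, capitals mark CCAAT on either strand and TTTGAA, the letters of the cell cycle homology region (CHR), on either strand.
MCM6 (chr2:135876394-135876693, - strand): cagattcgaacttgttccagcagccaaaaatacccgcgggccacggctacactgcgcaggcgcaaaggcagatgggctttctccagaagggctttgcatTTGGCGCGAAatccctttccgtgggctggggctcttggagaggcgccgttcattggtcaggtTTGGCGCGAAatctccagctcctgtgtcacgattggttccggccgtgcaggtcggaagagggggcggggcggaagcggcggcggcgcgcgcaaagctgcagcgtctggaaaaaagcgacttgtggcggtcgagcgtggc
E2F1 (chr20:33686336-33686635, - strand): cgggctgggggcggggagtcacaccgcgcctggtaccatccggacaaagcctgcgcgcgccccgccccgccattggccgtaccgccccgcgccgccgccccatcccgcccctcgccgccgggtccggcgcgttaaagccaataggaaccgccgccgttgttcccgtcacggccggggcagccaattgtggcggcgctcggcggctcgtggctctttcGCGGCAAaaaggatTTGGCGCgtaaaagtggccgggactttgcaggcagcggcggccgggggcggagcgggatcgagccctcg
CCNB1 (chr5:69166900-69167199, + strand): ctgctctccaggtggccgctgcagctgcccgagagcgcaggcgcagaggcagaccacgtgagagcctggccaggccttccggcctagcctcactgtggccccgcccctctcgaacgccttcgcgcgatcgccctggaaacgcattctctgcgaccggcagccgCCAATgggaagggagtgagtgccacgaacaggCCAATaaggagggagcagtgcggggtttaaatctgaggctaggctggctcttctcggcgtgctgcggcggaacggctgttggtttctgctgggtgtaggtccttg
TOP2A (chr17:40417847-40418146, - strand): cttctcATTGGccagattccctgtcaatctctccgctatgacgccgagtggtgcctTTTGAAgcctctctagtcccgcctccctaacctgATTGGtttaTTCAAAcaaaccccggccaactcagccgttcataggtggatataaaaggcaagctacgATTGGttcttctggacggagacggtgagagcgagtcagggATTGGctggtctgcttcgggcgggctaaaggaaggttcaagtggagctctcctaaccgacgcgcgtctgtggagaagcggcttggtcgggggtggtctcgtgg

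The MCM6 window held 4 E2F core matches, in 2 runs that each hold a pair of overlapping matches on opposite strands, and the E2F1 window held 2. The CCNB1 window held 2 CCAAT and 0 TTTGAA matches, and the TOP2A window 4 CCAAT and 2 TTTGAA matches. Over 35116 RefSeq promoter windows of this length, 13% held an E2F core match, 15.2% a TTTGAA and 34.6% a CCAAT. Of the 22 G1/S list members with a window, 14 held an E2F core match, 1 a TTTGAA and 13 a CCAAT. Of the 21 G2/M members with a window, 4 held an E2F core match, 13 a TTTGAA and 18 a CCAAT. These are matches of letters in a fixed window and say nothing of binding in these cells. The counts cover all list members with a window, called or not, so they do not bear on the 18 h differences. The 35116 windows were not limited to genes expressed here.

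Of 22 p53 targets, 3 were lower (0.889% of all tested genes were) and 0 higher, with a median of -0.14. The cell cycle inhibitor CDKN1A had 174, 175 and 157 CPM in ibufenac probe cells, against 201, 232 and 193 CPM in DMSO cells, and fell by 0.31 ± 0.08 (edgeR adjusted p = 0.0304), which held only without DMSO replicate 1 or 3. DDB2, a DNA damage sensor, fell by 0.33 (edgeR adjusted p = 0.00374), which was lost without ibufenac probe replicate 1. The death receptor TNFRSF10B fell by 0.19 and passed in 0 of the 6 fits that left out a library. Numbers of calls in the list were 0, 1 and 1 without ibufenac probe replicates 1, 2 and 3, and 2, 1 and 2 without DMSO replicates 1, 2 and 3.

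Other lists had few calls, where 1.8% of all tested genes were higher and 0.889% lower. Single calls in lists of these sizes say little about the list. Among the cholesterol synthesis genes, HMGCS1 was higher, at 0.27, and the NRF2 targets had 1 higher of 25, the glutathione synthesis gene GCLM, at 0.44. Among 20 heat shock genes the collagen chaperone SERPINH1 was higher, at 0.43. Single calls among higher genes were INHBA at 1.08 (of 16 YAP and TEAD targets), the zinc carrier SLC39A6 at 0.24 (of 8 metallothioneins and zinc transporters) and ARRDC3 (of 7 TXNIP and glucose sensor genes). Lower calls were BCL2L11, which promotes apoptosis, at -0.47 and TNFRSF10B (of 20 apoptosis regulators), ALDH1A2, which makes retinoic acid, at -0.73 (of 15), CRY1 at -0.30 (of 19 clock genes) and SNHG17 at -0.30 (of 14 snoRNA hosts). SDHA at -0.26 (of 37 oxidative phosphorylation genes), ACLY at -0.19 (of 16 fatty acid synthesis genes) and ATF3 (of 21 immediate early genes) completed them. Of these, ARRDC3 passed in each fit that left out a library, and each of the others lost its call in at least 1; without DMSO replicate 3, ALDH1A2 was at -0.42, INHBA at 0.83 and SERPINH1 at 0.27, not called.

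The drug's own target genes and handling genes gave no call. The prostaglandin pathway had 0 of 12 called, with PTGS2, the inducible cyclooxygenase that these drugs inhibit, at 1.41, 2.13 and 1.56 CPM in ibufenac probe cells and 1.97, 1.12 and 2.77 CPM in DMSO cells. PTGS1 was under 1 CPM in each of the 6 libraries. Of 11 tested genes of acyl glucuronide hydrolysis and drug efflux, 0 were called, and their median was -0.01. There were also 0 calls among 10 AhR targets, 19 genes of fatty acid oxidation and PPAR targets, 11 NF-kB targets, 8 polymerase III RNAs, 13 genes of the mitochondrial genome, 39 ribosomal proteins, 21 replication-dependent histones and 31 proteasome genes. Over all genes, 14.4% had an unadjusted p under 0.05.

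The 18 h comparison was set beside the same comparison at 6 h and 12 h, each against the DMSO libraries of its own time. At 6 h, 2466 genes were called (12.7%), 896 higher (4.63%) and 1570 lower (8.11%), and at 12 h 872 were (4.51%), 355 higher (1.83%) and 517 lower (2.67%). Of the 349 genes higher at 18 h, 51 were also higher at 6 h and 60 were lower there; the 51 are 14.6% of the 18 h genes and 5.69% of those higher at 6 h. At 12 h, 71 of the 349 were also higher (20.3%, and 20% of those higher at 12 h) and 7 were lower. Of the 172 genes lower at 18 h, 52 were lower and 15 higher at 6 h, while 71 were lower and 1 higher at 12 h. These 71 are 41.3% of the 18 h genes and 13.7% of those lower at 12 h.

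The difference from DMSO itself differed between times in many genes. For 18 h less 6 h, 1544 genes passed (7.98%; edgeR, adjusted p under 0.05), 1032 with a more positive (5.33%) and 512 with a more negative (2.65%) difference at 18 h. For 18 h less 12 h, 98 passed (0.506%), 77 more positive (0.398%) and 21 more negative (0.109%). Of the ATF4 targets, 16 of 20 were higher at 6 h, with a median of 0.90, 5 at 12 h, with a median of 0.24, and 0 at 18 h. The difference at 18 h was lower than at 6 h for 13 of the 20, and lower than at 12 h for 3. Leaving out 1 of the 12 libraries left 12 to 14 and 2 to 3 of them called.

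TRIB3 had a log2 fold change of 1.82 ± 0.09 at 6 h, 0.86 ± 0.09 at 12 h and 0.26 ± 0.10 at 18 h, and the last lay 1.55 ± 0.13 below the first (edgeR adjusted p = 4.3e-12). ASNS had 1.24 at 6 h, 1.19 at 12 h and 0.22 at 18 h, so most of its decline fell after 12 h: the 18 h value was 0.97 ± 0.10 below that at 12 h (edgeR adjusted p = 8.15e-09). The serine synthesis enzyme PSAT1 (0.85, 0.88 and 0.13 at 6, 12 and 18 h) and the mitochondrial folate enzyme MTHFD2 (0.79, 0.71 and -0.02) were also near their 6 h value at 12 h, and their difference between 18 h and 12 h passed (adjusted p = 0.00103 and 7.69e-06); both were chosen after their values were seen. SLC7A11, the cystine carrier, went through 1.24, 0.75 and 0.05 at the 3 times. CHAC1 was at 2.24 at 6 h, 0.13 at 12 h and -0.78 at 18 h, and DDIT3 at 1.06, -0.18 and -0.29. XBP1 went through 1.13, 0.55 and 0.23. All these 18 h against 6 h differences passed in each fit that left out 1 of the 12 libraries, as did the 12 h ones given for ASNS, PSAT1 and MTHFD2.

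**Figure D4:**
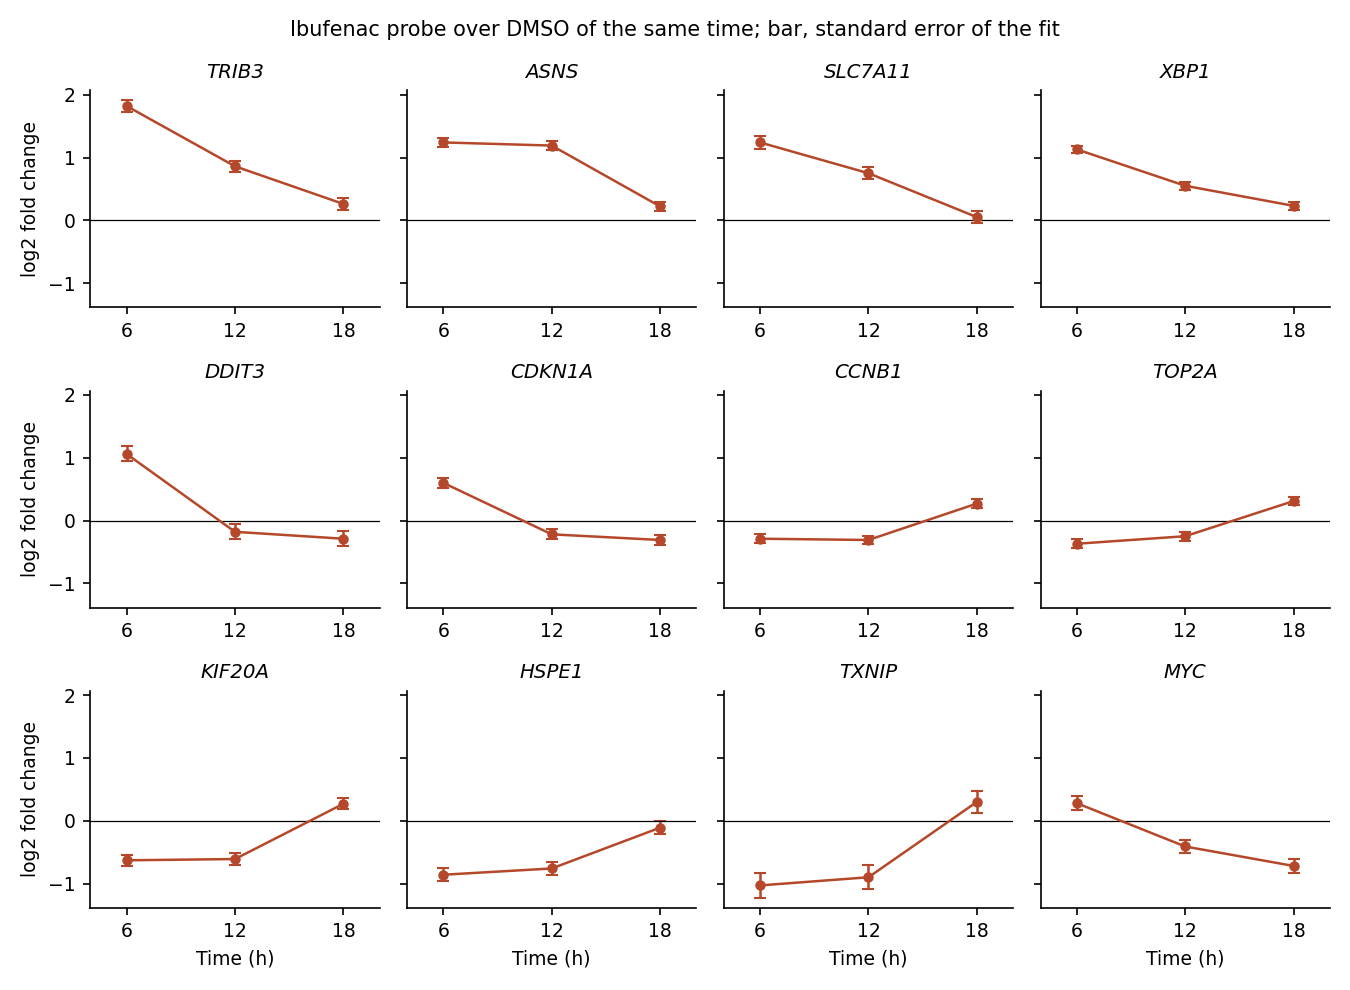
Log2 fold change, ibufenac probe over DMSO of the same time, at 6, 12 and 18 h for 12 genes, with the standard error of the fit (n = 3 libraries a group). TRIB3, SLC7A11, XBP1 and DDIT3 start above 1 at 6 h and end between -0.29 and 0.26 at 18 h, whereas CCNB1, TOP2A, KIF20A and TXNIP lie below 0 at 6 and 12 h and above 0 at 18 h. The 18 h values of KIF20A and TXNIP were not called.

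Several mitotic genes took the reverse course. Of the 26 G2/M genes, 17 were lower at 6 h (median -0.30), 8 were lower at 12 h (median -0.18) and 6 were higher at 18 h (median 0.20). The difference was higher at 18 h than at 6 h for 18 of the 26 and than at 12 h for 8, and 15 to 18 and 5 to 10 passed when 1 library was left out. CCNB1 was at -0.29 at 6 h, -0.31 at 12 h and 0.27 at 18 h, and the 18 h value exceeded the others by 0.56 and 0.58 (edgeR adjusted p = 5.8e-05 and 0.00035). KIF20A, a kinesin of cell division, was at -0.63, -0.61 and 0.27 at the 3 times, where the 18 h value did not pass by itself (adjusted p = 0.0876) except without DMSO replicate 3, at 0.36. The p53 targets ran the other way: 15 of 22 were higher at 6 h (median 0.39), 0 were called at 12 h and 3 were lower at 18 h, and the 18 h difference was below that at 6 h for 14. CDKN1A was at 0.60, -0.22 and -0.31 at 6, 12 and 18 h. SESN2 is in both the p53 and the ATF4 list, and the activity of p53 itself was not measured.

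Heat shock genes, lower at the earlier times, were near DMSO at 18 h. Of 20, 14 were lower at 6 h (median -0.35) and 13 at 12 h (median -0.29), against 1 higher and 0 lower at 18 h (median 0.03), and for 8 the difference was higher at 18 h than at 6 h. HSPE1, the mitochondrial co-chaperonin, was at -0.86, -0.76 and -0.11 at the 3 times. TXNIP, which restrains glucose uptake, was at -1.03 at 6 h, -0.90 at 12 h and 0.30 at 18 h. The 18 h value was not called (edgeR adjusted p = 0.472) and was 0.01 without DMSO replicate 3. With all libraries, it exceeded the 12 h value by 1.2 ± 0.26 (edgeR adjusted p = 0.014). That call was lost without ibufenac probe 18 h replicate 2, ibufenac probe 12 h replicate 3 or DMSO 12 h replicate 2. ARRDC3, of the same family, was higher throughout, at 0.94, 0.57 and 0.83. Of the cholesterol synthesis genes, 11 of 25 were lower at 6 h and 6 at 12 h.

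Some genes that led at 18 h had been changed all along and others had not. DEPP1 was at -1.59, -1.12 and -1.1 at 6, 12 and 18 h, ADAMTS1 at -0.61, -0.72 and -0.97, CA2 at -0.84, -0.80 and -0.86, SLC16A9 at 0.96, 1.37 and 1.24 and PKN2-AS1 at 1.62, 1.76 and 2.06, each called at all 3 times. KRTAP19-1 was higher at 6 h, by 1.14, and lower at 18 h, by 1.79, a difference of -2.92 ± 0.40 between times (edgeR adjusted p = 1.14e-06). Its mean at 6 h was 3.16 CPM in ibufenac probe cells and 1.43 CPM in DMSO cells, so in DMSO cells it was far lower at 6 h than at 18 h. MYC was at 0.28 and not called at 6 h (adjusted p = 0.0774), and lower by 0.41 at 12 h and 0.72 at 18 h, with a difference of -1.0 ± 0.15 between 18 h and 6 h (edgeR adjusted p = 1.02e-05). CHD4 was lower at 6 h, by 0.25, and higher at 18 h, by 0.49, a difference of 0.74 ± 0.09 (edgeR adjusted p = 2.1e-08). All 3 differences passed in each fit that left out 1 of the 12 libraries.

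The ibufenac probe was compared with the ibuprofen probe at 18 h, in the same form, time and label; this was the only pair of compounds compared. No dose is labelled for single libraries, and the design text gives 10 µM for both. Of 19352 genes, 0 passed (0%) with edgeR, while before adjustment 1065 (5.5%) were under 0.05. With DESeq2, 11 genes passed. The interval of the difference, rather than this count, shows what size these libraries leave room for. KRTAP19-1 averaged 2.93 ± 0.0736 CPM with the ibufenac probe and 5.79 ± 0.398 CPM with the ibuprofen probe (SD, n = 3 each), a log2 difference of -0.98 with an unadjusted 95% interval of -1.53 to -0.43. ANXA2 differed by 0.34 (0.19 to 0.49), CHD4 by 0.26 (0.14 to 0.38), ADAMTS1 by -0.36 (-0.56 to -0.16) and CTH by -0.38 (-0.56 to -0.20). These genes were named from comparisons that used the same ibufenac probe libraries, which can push their differences away from 0. The intervals do not allow for that choice. None of these genes passed the adjustment over all genes, where the smallest adjusted p among the genes named here was 0.387. ARRDC3 differed by 0.03 (-0.20 to 0.26), MYC by -0.06 (-0.28 to 0.17), SLC1A4 by -0.01 (-0.18 to 0.16), ATF4 by -0.03 (-0.14 to 0.08) and ASNS by -0.11 (-0.25 to 0.03). For these 5, no bound lay farther from 0 than 0.28 on the log2 scale; SLC16A9, at 0.03 (-0.37 to 0.43), was less well measured.

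**Figure D5:**
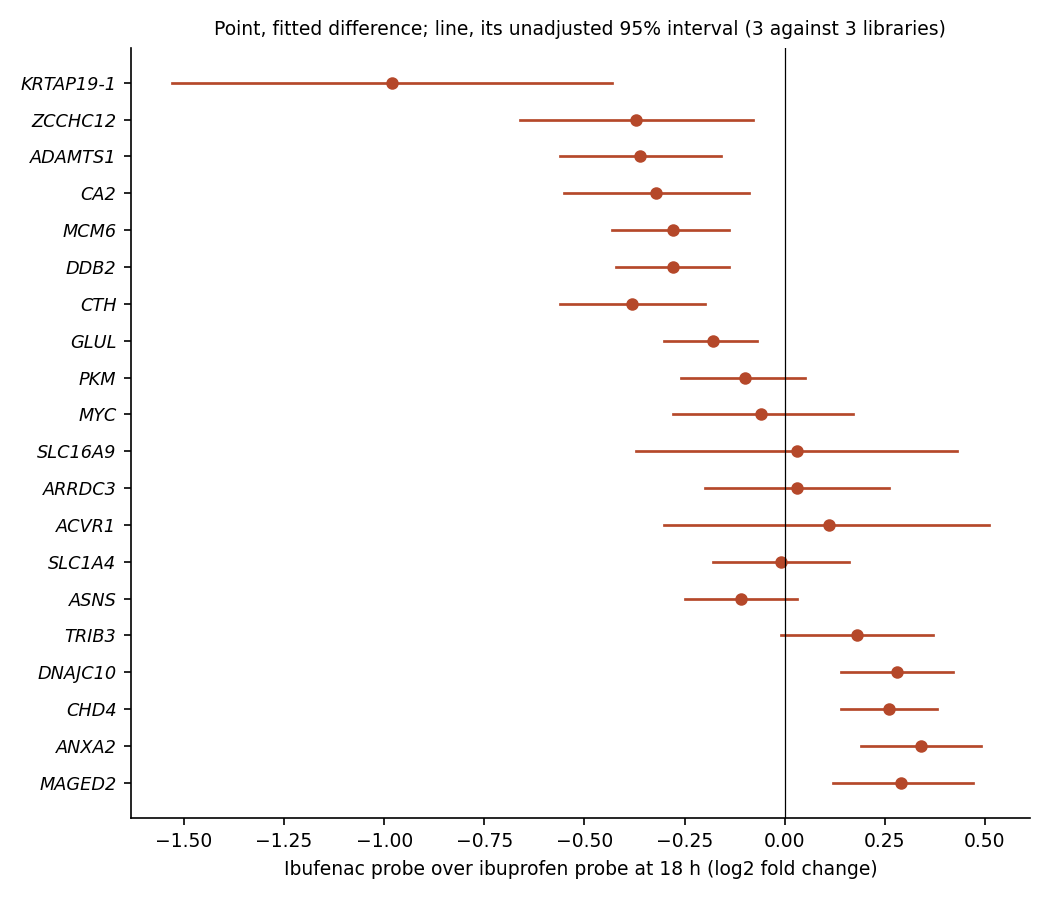
Log2 difference between the ibufenac probe and the ibuprofen probe at 18 h for 20 genes, with unadjusted 95% intervals from the fit over all libraries (3 against 3 libraries). The interval of KRTAP19-1 runs from -1.53 to -0.43 and that of ARRDC3 from -0.20 to 0.26, and 0 of 19352 genes passed the adjustment. The intervals do not allow for how the genes were chosen.

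Photocaged ibufenac, a separately labelled arm of the same drug, differed from the ibufenac probe at 18 h in 1 gene (0.00517% of the genes tested). CTH had 40.0, 45.3 and 42.4 CPM in ibufenac probe cells and averaged 60.7 ± 1.01 CPM in photocaged ibufenac cells (SD, n = 3). The log2 difference was -0.51 ± 0.09 (95% interval -0.69 to -0.33, edgeR adjusted p = 0.0124), and it passed only without ibufenac probe replicate 2 of the 6 fits that left out a library. Before adjustment, 1180 genes were under 0.05 in edgeR, and with DESeq2 16 genes passed.

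The other 18 h arms share the DMSO libraries with the ibufenac probe, DMSO replicate 3 included, so their values against DMSO are set side by side only. ADAMTS1 was at -0.97 with the ibufenac probe, -0.61 with the ibuprofen probe, -0.70 with photocaged ibufenac and -0.10 with the ibufenac bolus. OSTN stood at -1.33, -1.16, -0.79 and 0.03 in that order of arms, and CA2 at -0.86, -0.53, -0.69 and -0.06. ARRDC3 was at 0.83, 0.80, 0.88 and 0.72, MYC at -0.72, -0.66, -0.57 and -0.63, and ATP2B4 at 0.69, 0.55, 0.49 and 0.59. The arms are near one another in ARRDC3, MYC and ATP2B4, while the bolus is nearest to DMSO in ADAMTS1, OSTN and CA2. Doses of the bolus are not labelled, and no test of this was made. These genes were named from the ibufenac probe comparison, which can push its values farther from DMSO than those of other arms. Replicate 3 of the ibufenac bolus at 18 h also deviated most from its group mean of all 63 libraries.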

How the data were processed

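The deposited table of expected counts holds 58336 genes in 63 libraries (21 groups of 3) of total RNA, depleted of ribosomal RNA and made into libraries with a stranded kit, per the labels' protocols. These are the authors' estimated counts: 22.6% of values of 1 or more are not whole. They were rounded to whole numbers. The deposited FPKM table was made by the authors, and it was used only to derive, with the counts, the gene lengths behind the length trend. No source used here names the aligner, the counter, the build or the strand setting. Gene names came from a table of current symbols (57754 genes) or GENCODE 29 (462), and 120 had none. The table held 0 columns of no sample of the study.

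One edgeR quasi-likelihood model (edgeR 4.0.16, R 4.3.3, TMM factors 0.91 to 1.11, filterByExpr with a minimum count of 10) was fitted over all 63 libraries, with 42 residual degrees of freedom, and p-values were adjusted over 19352 genes at a threshold of 0.05. Standard errors are the log2 fold change over the square root of F, and intervals are at 95%. CPM are counts per 1e6 of the TMM-scaled library. Alternatives were DESeq2 1.42.0, its size factors, no filter, a replicate block, length and GC trends removed, smaller sets of libraries and each library left out. Of 63 pairs of libraries within groups, 0 agreed within sampling noise (chi-square per degree of freedom of at least 5.09). Totals over the study were 12.1 to 38.4 M (M, 1e6), and the biological coefficient of variation was 0.159. On simulated counts for 19352 genes, 20% of genes changed 1.25-fold, 66% at 1.5-fold, 86% at 2-fold and 96% at 3-fold were called (50 genes each), with 7 false calls. The changed genes were drawn from those with a mean count over 50. Libraries were simulated independently around their group mean, with no GC trend between the groups and no library apart from its group. These rates and false calls therefore may not hold for the measured data.

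Genes named are the called genes of largest change (at most 12 higher, at most 12 lower) whose mean was 1 CPM or more and whose libraries lay apart, up to 4 called members of each list, and a fixed set of stress and drug target genes. Some genes that these rules give are not reported here. For each other comparison, up to 5 called genes in each direction were named by size. The members and lists were chosen with earlier results of these data known. The 20 genes with the smallest adjusted p, and KIF20A, DLGAP5, PCK2, PSAT1 and MTHFD2, were added after their values were seen. Python 3.11.15, pandas 2.3.3, numpy 2.4.6 and matplotlib 3.10.9 were used for tables and plots.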

Additional observations from a re-analysis of the deposited data

Results flagged for a closer look

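The genes here are those that the rules for named genes gave, and those added after their values were seen, whose difference from DMSO (ibufenac probe minus DMSO, log2) itself differed between 18 h and an earlier time at an adjusted p under 0.05 (edgeR, 3 libraries a group). Each value is the difference at 18 h less that at the earlier time, so a negative value means a lower difference at 18 h.

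Against 6 h, genes of the ATF4 response, amino acid supply and protein folding had the values ASNS -1.02, ATF3 -1.26, ATF4 -0.42, CHAC1 -3.02, CTH -1.63, DDIT3 -1.35, GDF15 -2.29, MTHFD2 -0.81, PCK2 -1.13, PSAT1 -0.72, SESN2 -0.93, SLC1A4 -0.64, SLC7A11 -1.2, STC2 -1.17, TRIB3 -1.55, CARS1 -0.99, DNAJB9 -1.08 and XBP1 -0.90. The values of the p53 targets were CDKN1A -0.90, DDB2 -0.62 and TNFRSF10B -0.62, and those of the replication genes E2F1 -0.82, MCM2 -0.76, MCM4 -0.25 and MCM6 -0.39. For mitotic genes they were CCNA2 0.56, CCNB1 0.56, DLGAP5 0.68, KIF20A 0.89, NUSAP1 0.54 and TOP2A 0.67. Chaperone, redox, sterol and zinc genes were at HSP90B1 0.37, HSPE1 0.75, HSPH1 0.49, GCLM 0.56, HMGCS1 0.45, TXNIP 1.33 and SLC39A6 0.57. Of the values in this paragraph, the calls of MCM4 and HSP90B1 were kept in 10 and 5 of the 12 fits that left out 1 library, and those of HSP90B1 (edgeR adjusted p = 0.185), HSPH1 (0.0737), GCLM (0.12) and HMGCS1 (0.0819) were lost with length and GC trends removed.

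The hypoxia target ANKZF1, a called list member at 18 h, had the value -0.53. Its 18 h log2 fold change was -0.45, and -0.14 without DMSO replicate 3. Genes that led the 18 h comparison and were below their 6 h difference had the values KRTAP19-1 -2.92, KLF15 -1.54, ID3 -1.44, ZCCHC12 -1.14, MYOM2 -1.03, OSTN -1.03, MYC -1.0 and LRATD2 -0.81. Those above it had the values CTSO 1.62, CHD4 0.74, ATP2B4 0.65, DNAJC10 0.61, LPGAT1 0.56, ATP9A 0.55, TRAM1 0.53, ANXA2 0.52, CAPN2 0.40 and CHD1L 0.38. Genes chosen by the size of their change between times were at KCTD16 -3.21, SH2D3C -2.80, UVSSA -0.92, TAF7L 3.02, PTGER3 2.28, RASL11B 2.24, GMPR 2.21, TRERF1 2.19, HOTAIR 1.08, DYNLL1 1.06 and TEX15 0.83. Many of these calls rested on single libraries: of the 12 fits that left out 1, ANKZF1 kept its call in 2, GMPR in 3, CTSO in 4, ID3, PTGER3 and TAF7L in 7, OSTN and SH2D3C in 8, LRATD2, MYOM2 and HOTAIR in 10, and UVSSA, RASL11B and TEX15 in 11. With length and GC trends removed, CAPN2 (edgeR adjusted p = 0.211), CHD1L (0.106), CTSO (0.0742), TEX15 (0.0691) and ATP9A (0.0563) did not pass.

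Against 12 h, fewer genes passed. Lower at 18 h were ASNS -0.97, CARS1 -0.56, CTH -0.75, MCM6 -0.42, MTHFD2 -0.73, PCK2 -0.92, PSAT1 -0.75, SLC7A11 -0.71, TRIB3 -0.59, STPG1 -0.86 and UVSSA -1.03. Higher at 18 h were CCNB1 0.58, CHD4 0.65, DLGAP5 0.76, DYNLL1 0.84, HOTAIR 1.2, HSPE1 0.65, KIF20A 0.88, TEX15 0.99, TOP2A 0.56 and TXNIP 1.2. Of the 12 fits that left out 1 library, MCM6 kept its call in 1, HOTAIR in 3, PCK2 in 5, TRIB3 and UVSSA in 6, STPG1 and TXNIP in 9, TEX15 in 10 and CARS1 in 11, and TRIB3 (edgeR adjusted p = 0.0632) did not pass with trends removed. The small nucleolar RNA SNORA57 had fitted values of -7.10 against 6 h and -14.18 against 12 h. It had 0, 0.118 and 0 CPM in ibufenac probe cells and 1.6, 1.12 and 2.77 CPM in DMSO cells at 18 h, and its 3 DMSO libraries at 12 h were at 0, so the fitted values depend on the prior count and are no bound; the 6 h call was kept in 6 of the 12 fits. No explanation of these differences was tested.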

How the results depend on the processing

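Of the 521 calls at 18 h, 496 were kept among 512 with DESeq2's size factors in edgeR, 519 among 718 with DESeq2, 321 among 678 with no filter on low counts, 272 among 305 with the 18 h libraries only, and 4 among 6 with only the 6 libraries compared. Without DMSO replicate 3 and ibufenac bolus replicate 3 at 18 h, 227 were kept among 351. With length and GC trends removed, 327 were kept among 504. Leaving out 1 library gave 220 to 529 calls at 18 h, 931 to 1628 for 18 h less 6 h, 44 to 125 for 18 h less 12 h, and 0 to 1 against photocaged ibufenac. The 98 calls for 18 h less 12 h became 167 with DESeq2, 224 with no filter and 8 with only the groups compared. Against the ibuprofen probe, the 0 calls became 11 with DESeq2, 201 with no filter and 2 with only the groups compared. Against photocaged ibufenac, the 1 call became 16 with DESeq2, 191 with no filter, 3 with length and GC trends removed and 0 with the 18 h libraries only. The cause of these changes was not tested. Fits of the 18 h libraries only give no comparison of times.

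Same-numbered libraries deviated little together from their group means (correlations 0.19, -0.07 and 0.08). The labels do not say whether the numbers pair the samples. Deviations from means of 3 libraries cannot settle it. With the replicate block, 519 genes were called at 18 h, 500 of them among the 521, and 1549, 91, 0 and 1 for 18 h less 6 h, 18 h less 12 h, the ibuprofen probe and photocaged ibufenac.

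Several genes that were not called changed sign. With no filter ATF4 was at -0.00 and SESN2 at -0.01; with trends removed HSPH1 was at -0.05 and SLC7A11 at -0.06; with the 18 h libraries only SESN2 was at -0.00. Without DMSO replicate 3, with or without ibufenac bolus replicate 3, ATF4 was at -0.01, HSPA5 at -0.03, HSPH1 at -0.01, MTHFD2 at 0.10, PTGS1 at -0.45, PTGS2 at 0.13, SESN2 at -0.24 and VEGFA at 0.03. Over the fits that left out 1 library, the values ran from -0.01 to 0.02 for ATF4, -0.03 to 0.19 for HSPA5, -0.01 to 0.11 for HSPH1, -0.02 to 0.70 for NQO1, -0.24 to 0.14 for SESN2, -0.08 to 0.10 for MTHFD2, -0.45 to 1.64 for PTGS1, -0.48 to 0.13 for PTGS2 and -0.05 to 0.13 for SLC7A11. SESN2 was at -0.03 and -0.01 without ibufenac probe replicates 1 and 2, PTGS1 at -0.09 without DMSO replicate 2, and NQO1 at -0.02 without ibufenac probe replicate 2 or DMSO replicate 1. Of the other values of single genes, 813 kept their direction and side of the threshold, 206 lost and 11 gained a call, over the alternatives that did not leave out a single library. In simulated counts, 66% of genes changed 1.5-fold and 86% of those changed 2-fold were called, so small changes can go uncalled. The simulated libraries lacked the GC trend and the departing DMSO library of the measured data.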
